A study of Arabidopsis thaliana and Zea mays with 36 samples.

Results

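The genes of the Arabidopsis plastid genome other than psbA were followed here through graded drought, as linear RNA and as circular RNA (circRNA). They were chosen by identifier: every gene whose identifier begins with ATCG, the prefix of the plastid chromosome, except ATCG00020 (psbA, the D1 protein of the photosystem II reaction centre). This gave 87 of the 27655 genes in the linear RNA data, and 8 of the 1354 Arabidopsis circRNAs, those assigned to these genes as hosts. The rule used identifiers and no measured value, but it was set with earlier results of these data known.

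The chloroplast keeps a small genome of its own. Its genes encode the large subunit of Rubisco (the CO2-fixing enzyme), core subunits of both photosystems, of the cytochrome b6f complex, of the ATP synthase and of an NADH dehydrogenase-like complex, and parts of the plastid's own transcription and translation machinery. A plastid-encoded RNA polymerase, directed by nuclear-encoded sigma factors, and nuclear-encoded phage-type polymerases transcribe it, and many of its genes are read as units that hold several genes. The remaining subunits of the same complexes come from nuclear genes, so that 2 genomes supply each photosynthetic complex.

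The samples were leaves of Arabidopsis thaliana ecotype Col-0, grown on soil and kept at a set soil moisture from 21 days after planting. The drought groups were DT2, DT3, DT4 and DT5, and the group they were set against was well watered (WW). The sources used here do not give the soil moisture of a level. Each sample was a pool of leaves from 4 plants, and each of the 5 groups had 2 samples, sequenced once without RNase R as linear RNA and once after digestion with RNase R, an enzyme that degrades linear RNA, as circRNA. The sources do not say how linear RNA was selected before sequencing either. The linear values are TPM, a level per transcript length scaled to the same total in every library, which keeps no sequencing depth. The study asks which linear RNAs and circRNAs differ between drought levels and the well-watered state.

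The leaf identity of the samples was checked on markers of leaf, root, seed and flower. The 5 leaf markers were above 0 in every group. Their summed level was 35635 to 36880 TPM in WW, 30200 to 32285 TPM at DT2, 26216 to 26247 TPM at DT3, 9378 to 12554 TPM at DT4, and 1893 to 2508 TPM at DT5. The 3 root markers summed to at most 198 TPM in any library, with COBL9 and EXPA7, the root hair markers, at 0 in every library. The 3 seed and 2 flower markers summed to 2.12 TPM or less in every library. In pooled leaves, fewer chloroplast-bearing cells and less plastid RNA per cell cannot be told apart.

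The reference gene table used here (RefSeq, assembly TAIR10.1) lists 85 protein-coding, 37 tRNA and 7 rRNA entries on the plastid chromosome, under locus tags of another kind, and none of the ATCG identifiers is among them. A gene name is therefore given only for the 5 identifiers whose circRNA locations all lie inside a single gene of that table. These are ATCG00270 (psbD), ATCG00280 (psbC), ATCG00490 (rbcL), ATCG00540 (petA) and ATCG00730 (petD). The same match placed all 118 circRNAs of ATCG00020 inside psbA. The other plastid genes are given by identifier alone, with no name or role.

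Plastid genes were a sparse part of the linear RNA data. Of the 87 genes, 56 reached 1 TPM in at least 2 libraries and were tested, 23 were listed at 0 in every library, and 8 were above 0 but under this minimum, the highest of their values being 5.49 TPM. The mean level of the tested plastid genes had a median of 4.22 TPM and ran from 0.43 TPM (ATCG00500) to 17.7 TPM (ATCG00670), against a median of 16.1 TPM over all 18938 genes tested. Of the 56, 37 were above 0 in all 10 libraries, and 17 were at 0 in 1 library of a group and above 0 in the other. There were 6 pairs of plastid genes with the same value in every library. Of the tested genes 10 stood in such pairs, and counting each pair once left 51. An identical pair of values cannot be assigned to one copy or the other.

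The plastid genes summed to overlapping levels in every group. Their summed level was 249.7 and 297.9 TPM in WW, 368.2 and 252.9 TPM at DT2, 227.8 and 334.2 TPM at DT3, 344.7 and 272.0 TPM at DT4, and 195.8 and 258.7 TPM at DT5. The range of every drought group overlapped the WW range. The group means were 273.8 ± 34.1 TPM in WW, 310.5 ± 81.5 TPM at DT2, 281.0 ± 75.3 TPM at DT3, 308.3 ± 51.4 TPM at DT4, and 227.2 ± 44.5 TPM at DT5 (SD, n = 2 each). Two-sided exact permutation tests against WW gave p = 1 for DT3 and p = 0.667 for each other level, where 0.333 is the smallest p that 2 against 2 libraries allow. The sign of the DT3 and DT4 differences turned after the rescaling described further on, with -43.3 TPM at DT3 against 7.22 TPM as deposited and -67.5 TPM at DT4 against 34.5 TPM as deposited. The sum was between 0.0196% and 0.0368% of all TPM in a library.

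Libraries of the same group differed more in their plastid and mitochondrial RNA than across all tested genes. The Pearson correlation between the 2 libraries of a group, across genes on the log2(TPM + 1) scale, was 0.887 in WW over the 56 plastid genes. It was 0.681 at DT2 and 0.572 at DT3, then 0.596 at DT4 and 0.476 at DT5. Over 38 mitochondrial genes the correlation ran from 0.348 in WW to 0.760 at DT5, and over all tested genes from 0.977 to 0.988. Genes are not independent replicates, and levels of plastid genes are lower. The median absolute log2 difference between the libraries of a group did not follow these correlations. Over the plastid genes it was 0.40 in WW, 0.39 for DT3 and 0.38 for DT4. Larger values were those of DT2 (0.67) and DT5 (0.59). Over the mitochondrial genes it was 0.40 in WW, where their correlation was lowest. Over all tested genes it ran from 0.14 in WW to 0.21 at DT5. At DT2 library 1 exceeded library 2 for 37 plastid genes and was below it for 17, with a median log2 difference of 0.44, while over all tested genes that median was -0.03. psbA stood at 170.6 TPM in DT2 library 1 and at 19.4 TPM in DT2 library 2, against 27.0 and 23.8 TPM in WW. At DT3 library 2 exceeded library 1 for 39 plastid genes, and at DT4 library 1 exceeded library 2 for 37. The summed mitochondrial RNA was higher in the same libraries of these groups, at 105.3 against 68.4 TPM in DT2 libraries 1 and 2, at 60.9 against 105.4 TPM in DT3 libraries 1 and 2, and at 124.8 against 92.1 TPM in DT4 libraries 1 and 2. Of the 56 tested plastid genes, 15 had their highest value in DT2 library 1, 12 in DT3 library 2 and 10 in DT4 library 1. Results that change without one of these libraries are given below with that value, and the part of organelle RNA content in them was not tested.

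**Figure D1:**
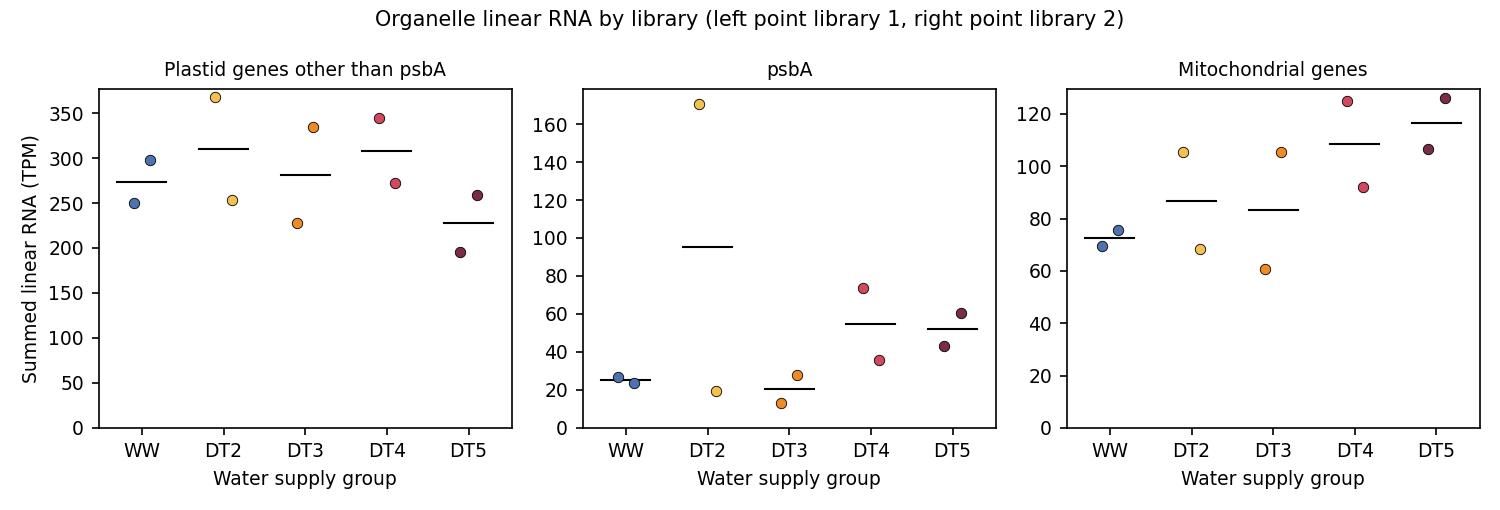
Summed linear RNA (TPM, y axis) of the 87 plastid genes other than psbA, of psbA and of the mitochondrial genes in each library, by water supply group (x axis); points are libraries, with library 1 on the left, and lines are group means. The plastid sums lie between 195.8 and 368.2 TPM with the 2 libraries of a group far apart, and psbA reaches 170.6 TPM in 1 DT2 library.

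Single plastid genes were then compared between each drought level and WW with limma, a linear model fitted across all genes, on log2(TPM + 1) with p-values adjusted over every tested gene by the Benjamini-Hochberg method; an adjusted p under 0.05 counts as called. The 4 comparisons share the WW libraries. At DT2 1 plastid gene was higher than WW and 0 were lower, against 1.47% and 0.412% of all tested genes. At DT3 0 were higher and 2 lower, against 14.5% and 2.22% of all genes. At DT4 5 were higher and 5 lower, against 48.3% and 16.4%. At DT5 5 were higher and 9 lower, against 43.4% and 28.1%. Between DT5 and DT2, the highest and the lowest drought level, 3 were higher at DT5 and 11 lower, against 39% and 31.3%. In an F test for any difference among the 5 groups, 17 plastid genes were called, against 81.8% of all tested genes. These counts hold both ATCG00830 and ATCG01310, a pair with the same values. With such pairs summed, 51 plastid genes were tested. Of these, 4 were lower at DT4, 8 at DT5, 10 at DT5 against DT2 and 16 called in the F test, with the other counts unchanged. At an unadjusted p under 0.05, 4 of the 56 were higher and 6 lower at DT2, and 5 higher and 3 lower at DT3. The share of all genes at that unadjusted threshold was not determined.

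The called share of the plastid genes, 17.9% at DT4 and 25.0% at DT5, thus lay under that of all genes at these levels. The precision differed too: the SE of a log2 change had a median of 0.43 over the plastid genes and 0.18 over all genes. At DT2 the median log2 change of the plastid genes was 0.18, against 0.12 over all tested genes, and at DT3 it was 0.20 against 0.22. At DT4 it was 0.30 against 0.41, and at DT5 -0.10 against 0.26. Relative to the median gene the plastid median thus lay at -0.11 for DT4 and at -0.36 for DT5, and within 0.06 for DT2 and DT3. The libraries were also rescaled by a trimmed mean of log ratios over the genes at 1 TPM or more in all 10 libraries. After that, 1 plastid gene was higher and 6 lower at DT4, against 22.7% and 29.3% of all genes. At DT5 5 were higher and 10 lower, against 32% and 36.4%. The plastid median was then -0.03 at DT4, against -0.03 over all genes, and -0.33 at DT5, against -0.04. Without WW library 1, 3 plastid genes were higher at DT4.

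**Figure D2:**
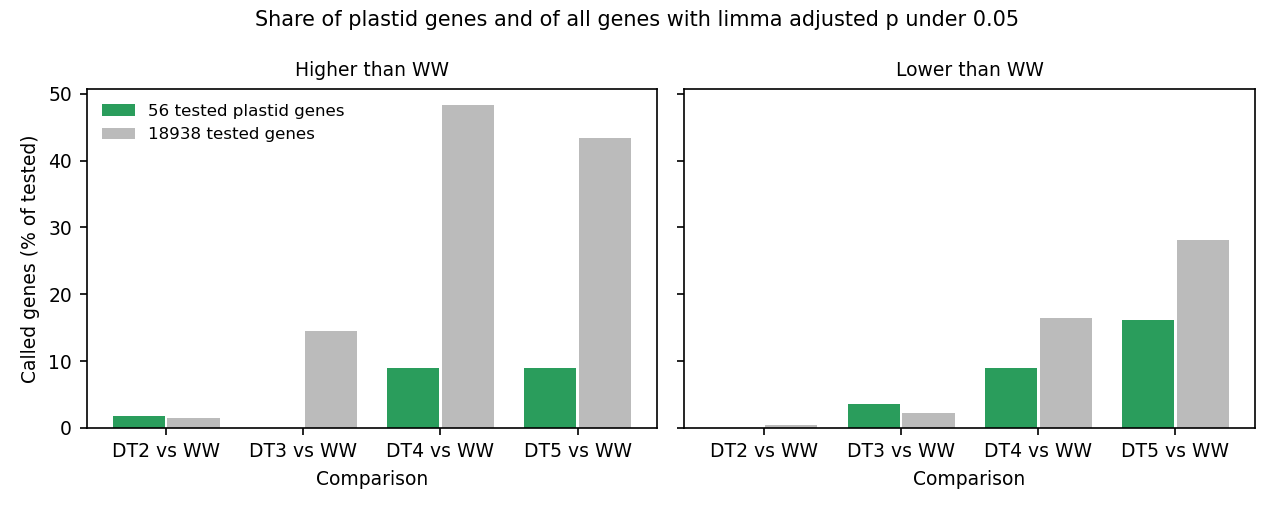
Share of tested genes called higher (left panel) or lower (right panel) than WW at each drought level (x axis) in percent (y axis), with the 56 tested plastid genes in green and all 18938 tested genes in grey. At DT4 and DT5 both green bars are shorter than the grey ones.

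**Figure D3:**
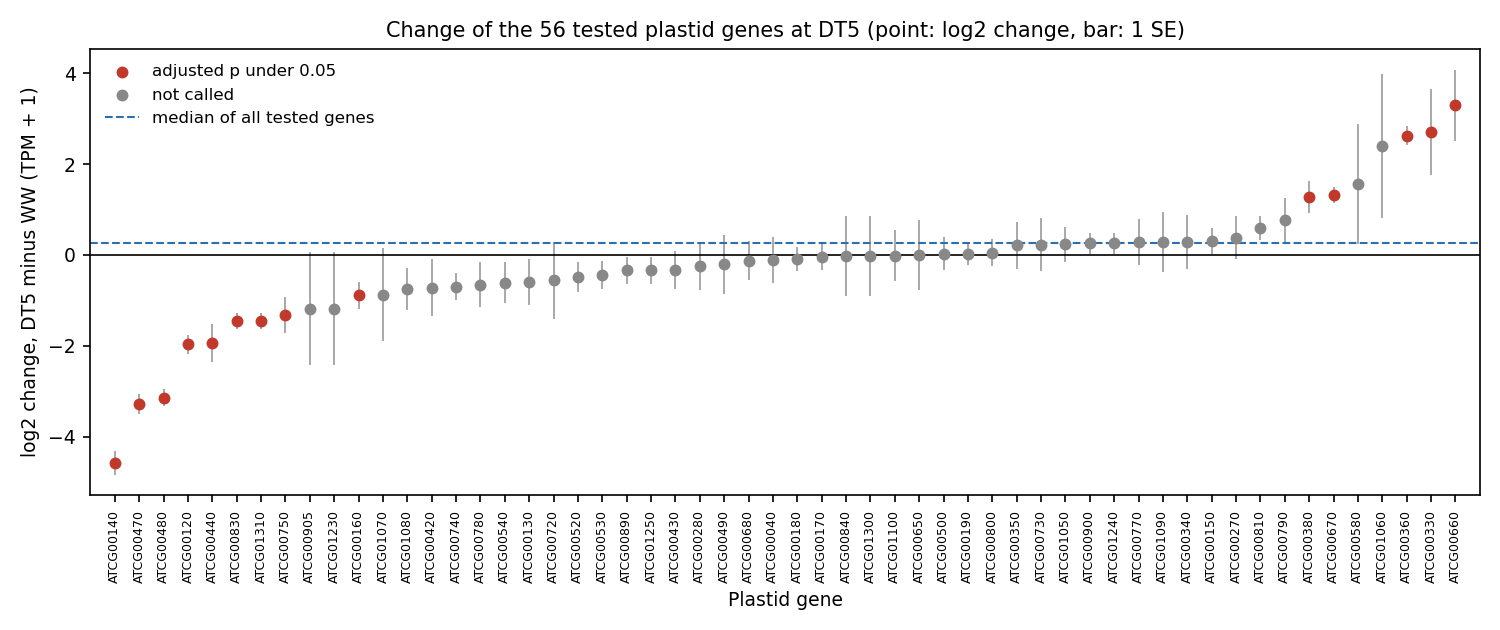
The log2 change at DT5 against WW on the log2(TPM + 1) scale (y axis) of each of the 56 tested plastid genes (x axis, ordered by change); bars are 1 SE of the limma fit, red points have an adjusted p under 0.05, and the dashed line is the median of all tested genes, at 0.26. There are 9 red points on the low side and 5 on the high side.

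The clearest falls were those of ATCG00480 and ATCG00470, plastid genes with consecutive identifiers and the highest WW levels along with ATCG00140. ATCG00480 stood at 27.4 and 31.4 TPM in WW, 24.4 and 17.4 TPM at DT2, 14.7 and 15.1 TPM at DT3, 6.82 and 8.64 TPM at DT4, and 2.59 and 2.27 TPM at DT5. Its DT3, DT4 and DT5 values were all under both WW values and did not overlap with one another. It fell at DT3 (log2 change -0.93, SE 0.18, limma adjusted p = 0.0112), at DT4 (-1.81, SE 0.18, limma adjusted p = 2.89e-05) and at DT5 (-3.15, SE 0.18, limma adjusted p = 2.69e-07). The DT3 call was lost without WW library 2 (limma adjusted p = 0.0868), DT3 library 1 (0.0721) or DT3 library 2 (0.0554). ATCG00470 stood at 26.1 and 19.5 TPM in WW, 12.7 and 12.6 TPM at DT2, 14.04 and 14.5 TPM at DT3, 7.20 and 4.23 TPM at DT4, and 1.52 and 1.36 TPM at DT5. It fell at DT4 (log2 change -1.85, SE 0.22, limma adjusted p = 7.32e-05) and at DT5 (-3.27, SE 0.22, limma adjusted p = 6.56e-07). Both genes also fell between DT2 and DT5, with log2 changes of -2.66 for ATCG00480 and -2.49 for ATCG00470.

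ATCG00140 was listed at 19.3 and 27.2 TPM in WW and at 21.7 and 12.9 TPM at DT2, and at 0 in all 6 libraries of DT3, DT4 and DT5. It was called lower at each of these levels (limma adjusted p = 8.81e-05 at DT3, 1.19e-06 at DT4 and 2.17e-07 at DT5). A zero in a TPM table can be a failed estimate, and no fold is given against it. Groups listed at 0 also add no spread to the fit of a gene, so its adjusted p may be too low. ATCG00440 was listed at 2.89 and 2.79 TPM in WW and at 0 in both DT5 libraries (limma adjusted p = 0.0022), with 1 and 0 TPM at DT2, 2.26 and 2.08 TPM at DT3, and 4.27 and 1.05 TPM at DT4.

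ATCG00120 was called against WW at DT5 alone. It had 10.2 and 13.98 TPM in WW, 11.2 and 10.54 TPM at DT2, 9.68 and 9.19 TPM at DT3, 8.36 and 7.89 TPM at DT4, and 1.79 and 2.94 TPM at DT5. Its DT5 libraries lay under all the others (log2 change -1.97, SE 0.20, limma adjusted p = 1.31e-05). ATCG00830 and ATCG01310, one of the pairs with the same values, had 14.2 and 14.5 TPM in WW, 14.7 and 13.1 TPM at DT2, 11.03 and 14.8 TPM at DT3, 8.17 and 8.16 TPM at DT4, and 3.88 and 5.45 TPM at DT5. The DT4 and DT5 libraries lay under every library of the other groups. The pair fell at DT4 (log2 change -0.75, SE 0.18, limma adjusted p = 0.0055) and at DT5 (-1.45, SE 0.18, limma adjusted p = 5.56e-05), and counts as 1 measurement.

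The remaining lower calls at DT5, of ATCG00750 and ATCG00160, were each lost without 1 library. ATCG00750 had 3.85 and 1.17 TPM at DT5, against 7.24 and 7.00 TPM in WW (log2 change -1.32, SE 0.39, limma adjusted p = 0.0119), and was not called without DT5 library 2 (limma adjusted p = 0.110). ATCG00160 had 0.52 and 0 TPM at DT5, against 0.95 and 1.69 TPM in WW (log2 change -0.89, SE 0.29, limma adjusted p = 0.0175), and was not called without DT5 library 2 (limma adjusted p = 0.134) or without WW library 2 (0.125). ATCG00160 had 0.16 and 0.48 TPM at DT2 as well, and 2.63 and 1.75 TPM at DT3, so that its levels did not follow the order of the drought levels.

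**Figure D4:**
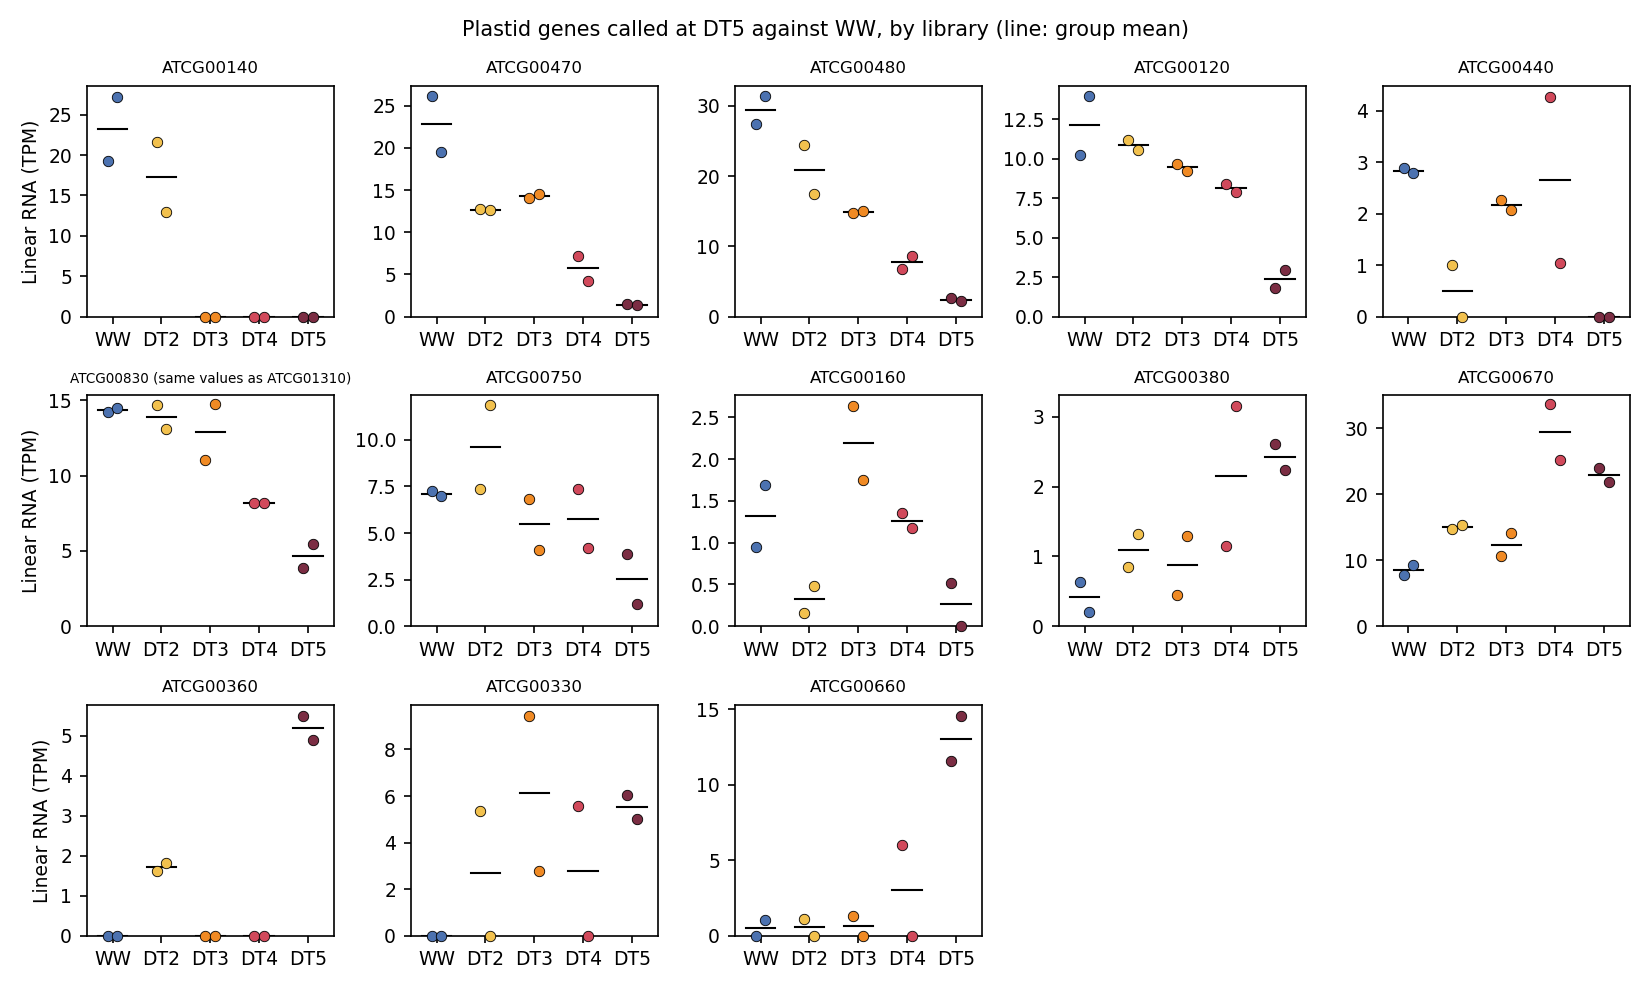
Linear RNA (TPM, y axis) of the plastid genes called at DT5 against WW, in each library by water supply group (x axis); points are libraries, lines are group means, and ATCG00830 stands for the pair with ATCG01310. ATCG00480 stands at 2.59 and 2.27 TPM at DT5, against 27.4 and 31.4 TPM in WW, while ATCG00670 is highest at DT4 and ATCG00660 at DT5.

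Against these falls, 5 plastid genes rose at DT5. ATCG00670, the plastid gene with the highest mean, had 7.83 and 9.33 TPM in WW, 14.7 and 15.3 TPM at DT2, 10.6 and 14.1 TPM at DT3, 33.7 and 25.2 TPM at DT4, and 23.96 and 21.9 TPM at DT5. Every drought library was above both WW libraries. It rose at DT4 (log2 change 1.66, SE 0.18, limma adjusted p = 3.99e-05) and at DT5 (1.32, SE 0.18, limma adjusted p = 8.63e-05). Of the 5 plastid genes called higher at DT4, ATCG00670 alone was still called at DT4 after the trimmed-mean rescaling (log2 change 1.19). ATCG00660, the identifier before it, had 0 and 1.04 TPM in WW, 1.13 and 0 TPM at DT2, 1.28 and 0 TPM at DT3, 6.01 and 0 TPM at DT4, and 11.6 and 14.6 TPM at DT5. It was called higher at DT5 alone (log2 change 3.29, SE 0.79, limma adjusted p = 0.0038). ATCG00380 had 0.64 and 0.21 TPM in WW, 0.85 and 1.32 TPM at DT2, 0.45 and 1.29 TPM at DT3, 1.15 and 3.16 TPM at DT4, and 2.61 and 2.24 TPM at DT5. It rose at DT4 (log2 change 1.09, SE 0.35, limma adjusted p = 0.0196) and at DT5 (1.28, SE 0.35, limma adjusted p = 0.0074). The DT4 call was lost without DT4 library 2 (limma adjusted p = 0.151) or WW library 2 (0.118) and after rescaling (0.0621), and the DT5 call without WW library 2 (0.0560).

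ATCG00360 and ATCG00330 were listed at 0 in both WW libraries. ATCG00360 had 1.61 and 1.82 TPM at DT2 and 5.49 and 4.89 TPM at DT5, and was listed at 0 in the libraries of WW, DT3 and DT4. ATCG00360 was called higher at DT5 (limma adjusted p = 1.58e-06) and was the only plastid gene called at DT2 (limma adjusted p = 0.0110). Its groups at 0 add no spread to the fit (SE 0.20), so these adjusted p may be too low. The DT2 call was lost without WW library 1 (limma adjusted p = 0.0762), DT2 library 1 (0.0786) or DT2 library 2 (0.102). ATCG00330 had 5.36 and 0 TPM at DT2, 9.44 and 2.79 TPM at DT3, 5.57 and 0 TPM at DT4, and 6.06 and 5.01 TPM at DT5. It was called at DT5 (limma adjusted p = 0.0252), and no longer without any single library of WW or DT5 (limma adjusted p from 0.0778 to 0.103).

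At DT4 3 further plastid genes were called higher than WW and were not called at DT5. ATCG00800 had 13.96 and 10.8 TPM at DT4, against 3.64 and 6.36 TPM in WW (log2 change 1.19, SE 0.29, limma adjusted p = 0.0056). ATCG00520 had 1.66 and 2.18 TPM at DT4, against 0.26 and 0.99 TPM in WW (log2 change 0.88, SE 0.34, limma adjusted p = 0.0420). ATCG00190 had 10.4 and 9.80 TPM at DT4, against 4.97 and 7.96 TPM in WW (log2 change 0.60, SE 0.24, limma adjusted p = 0.0491). For each of the 3 the DT4 and WW libraries did not overlap, and each lost its call without WW library 1 (limma adjusted p = 0.0528 for ATCG00800, 0.256 for ATCG00520 and 0.339 for ATCG00190) and after the trimmed-mean rescaling (0.0544 for ATCG00800, 0.162 for ATCG00520 and 0.598 for ATCG00190). ATCG00520 and ATCG00190 also lost it without either DT4 library (limma adjusted p from 0.0671 to 0.146 for ATCG00520 and from 0.0932 to 0.145 for ATCG00190).

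Between DT5 and DT2, 7 of the 11 lower plastid genes were also called lower at DT5 against WW. The remaining 4 were ATCG00520, ATCG00740, ATCG00800 and ATCG01080. ATCG00520 had 0 and 0.27 TPM at DT5, against 1.53 and 2.13 TPM at DT2 (log2 change -1.32, SE 0.34, limma adjusted p = 0.0054). ATCG00740 had 1.44 and 1.17 TPM at DT5, against 3.61 and 2.81 TPM at DT2 (log2 change -0.86, SE 0.30, limma adjusted p = 0.0256). ATCG00800 had 6.87 and 3.64 TPM at DT5, against 11.6 and 8.38 TPM at DT2 (log2 change -0.85, SE 0.29, limma adjusted p = 0.0258). ATCG01080 was listed at 0 in both DT5 libraries, against 3.4 and 0.59 TPM at DT2 (limma adjusted p = 0.0205). The last 3 lost their calls without single libraries: ATCG00740 without DT2 library 1 or either DT5 library (limma adjusted p up to 0.130), ATCG00800 without DT2 library 1 or DT5 library 2 (up to 0.202), and ATCG01080 without either DT5 library (up to 0.0769).

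The 3 plastid genes higher at DT5 than at DT2 were ATCG00360, ATCG00660 and ATCG00670. ATCG00670 was no longer called without DT2 library 1 (limma adjusted p = 0.0671) or DT5 library 1 (0.0707), nor after rescaling (0.0785). This comparison moved with the DT2 libraries: without DT2 library 2, 3 plastid genes were higher and 21 lower, and without DT2 library 1, 7 were higher and 8 lower; without DT5 library 1, 5 were higher and 11 lower. ATCG00780 was called in the F test (limma adjusted p = 0.0290) and in none of the pairwise comparisons; its libraries stood at 8.96 and 3.46 TPM in WW, 8.34 and 3.18 TPM at DT2, 12.5 and 11.6 TPM at DT3, 16.9 and 10.7 TPM at DT4, and 5.27 and 1.86 TPM at DT5.

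The 5 plastid genes with a name are core photosynthesis genes, and none was called at any drought level. rbcL encodes the large, catalytic subunit of Rubisco, psbD the D2 protein of the photosystem II reaction centre, psbC the CP43 antenna protein of photosystem II, petA cytochrome f, and petD subunit IV of the cytochrome b6f complex. The 20 comparisons with WW gave log2 changes from -0.61 to 1.27 with SE from 0.46 to 0.65 and limma adjusted p from 0.166 to 0.989. All 5 had their highest value in DT2 library 1.

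rbcL had 5.09 and 5.17 TPM in WW, 35.2 and 5.05 TPM at DT2, 3.29 and 5.59 TPM at DT3, 11.5 and 9.73 TPM at DT4, and 2.97 and 6.07 TPM at DT5. Both DT4 libraries were above both WW libraries, and at DT2 only library 1 was. psbC had 4.03 and 5.03 TPM in WW, 14.3 and 2.56 TPM at DT2, 3.35 and 4.53 TPM at DT3, 7.89 and 10.2 TPM at DT4, and 3.52 and 3.75 TPM at DT5. psbD had 2.63 and 4.28 TPM in WW, 7.45 and 1.35 TPM at DT2, 3.48 and 2.37 TPM at DT3, 5.65 and 6.45 TPM at DT4, and 4.10 and 5.35 TPM at DT5. As with rbcL, the DT4 values of psbC and psbD were above both WW values, with a log2 change at DT4 of 0.92 for rbcL (SE 0.65, limma adjusted p = 0.233), 0.86 for psbC (SE 0.51, limma adjusted p = 0.166) and 0.69 for psbD (SE 0.48, limma adjusted p = 0.231). petA stayed between 0.86 and 4.53 TPM in all libraries. petD had 1.43 and 2.77 TPM in WW, 11.2 and 3.06 TPM at DT2, 4.63 and 4.42 TPM at DT3, 7.41 and 3.06 TPM at DT4, and 4.86 and 1.13 TPM at DT5. Its DT2, DT3 and DT4 libraries were all above both WW libraries without a call (limma adjusted p from 0.176 to 0.337).

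Nuclear genes that encode partners of plastid-encoded proteins fell at the higher drought levels. The 12 nuclear genes compared encode subunits of Rubisco, both photosystems, the cytochrome b6f complex and the ATP synthase. All 12 were lower at DT4 and all 12 at DT5, against 16.4% and 28.1% of all tested genes. Their median log2 changes were -1.44 at DT4 and -3.43 at DT5, against 0.41 and 0.26 over all tested genes. After rescaling the counts were the same, against 29.3% and 36.4% of all genes. The medians were then -1.94 and -3.77, against -0.03 and -0.04 over all genes. RBCS1A, a Rubisco small subunit that joins the product of rbcL, fell at DT5 (log2 change -5.14, SE 0.22, limma adjusted p = 4.59e-08). PETC, the Rieske protein of the complex that also holds the petA and petD products, fell as well (log2 change -1.497, SE 0.10, limma adjusted p = 7.71e-07), and so did PSBO1, the oxygen-evolving complex protein of photosystem II (log2 change -3.20, SE 0.16, limma adjusted p = 9.68e-08). A difference between the nuclear and the plastid partner was not tested.

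Of 20 nuclear genes of plastid transcription (sigma factors, phage-type polymerases and proteins associated with the plastid-encoded polymerase), 9 were higher and 2 lower at DT4, against 48.3% and 16.4% of all tested genes, and 3 were higher and 7 lower at DT5, against 43.4% and 28.1%. After rescaling there were 2 higher and 6 lower at DT4, against 22.7% and 29.3%, and 2 higher and 12 lower at DT5, against 32% and 36.4%. SIG5, a sigma factor known to respond to stress and to act at the psbD promoter, rose at DT5 (log2 change 1.03, SE 0.18, limma adjusted p = 0.000554), as did the phage-type polymerases RPOTp (log2 change 0.58, SE 0.15, limma adjusted p = 0.0069) and RPOTmp (log2 change 1.42, SE 0.24, limma adjusted p = 0.000356). RPOTp was not called after rescaling (limma adjusted p = 0.148). SIG5 was lower than WW at DT3 (log2 change -0.63, SE 0.18, limma adjusted p = 0.0426), also after rescaling, and was not called at DT4 (0.182). The sigma factors SIG4 (log2 change -1.19, SE 0.11, limma adjusted p = 6.49e-06), SIG2 (-1.101, SE 0.09, limma adjusted p = 1.71e-06) and SIG6 fell at DT5 (-0.79, SE 0.12, limma adjusted p = 0.000191). So did SIG1 (-0.39, SE 0.10, limma adjusted p = 0.0064). The remaining lower calls at DT5 were the polymerase-associated proteins PAP5 (log2 change -0.63), PAP8 (-0.45) and PAP12 (-1.13).

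As circRNA, the plastid genes other than psbA were few and low. The 8 circRNAs came from the 5 named genes, 4 of them from psbC and 1 each from psbD, rbcL, petA and petD, and the other 82 genes hosted none. They took 0.304 ± 0.110% of all circRNA signal in WW and 0% at DT2. The share was 0.0714 ± 0.0272% at DT3, 0.0495 ± 0.0226% at DT4 and 0.0524 ± 0.0422% at DT5 (SD, n = 2 in each group). Both WW libraries were above every drought library, and each two-sided exact permutation test against WW gave p = 0.333, the smallest that 2 against 2 libraries allow. The 118 circRNAs of psbA took 17.6% to 20.0% in the group means. The circRNA values are a signal scaled by the authors, and within a library they come in whole steps of 11.8 to 16.3. The step was set so that the smallest value of a library is 2 steps. Values near it are at the floor of the listing, and how many reads a step holds was not established. The listed steps of the 8 circRNAs summed to 18 and 25 in the WW libraries, of 6549 to 10695 steps per library over all circRNAs.

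The circRNA of rbcL, at Pt:55772-55942 on the plus strand of the plastid chromosome (positions as deposited, build TAIR10 per the submitters' processing notes), was listed at 85.7 and 153.5 in WW and in no drought library. The circRNA of petD, at Pt:77295-77524 on the minus strand, was listed at 42.9 and 76.8 in WW alone, and that of petA, at Pt:62369-62592 on the plus strand, at 28.6 and 30.7 in WW alone. The circRNA of psbD, at Pt:33438-33683 on the plus strand, was listed at DT3 alone, at 27.0 and 29.9. Each of the 8 was listed in both libraries of a group or in neither, as was the case throughout the deposited circRNA values, where 2721 listings covered both libraries of a group and 1 covered a single library.

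Of the 4 circRNAs of psbC, 3 were listed in a single group each. One at Pt:34527-34725 (plus strand) was listed in WW alone at 28.6 and 30.7, one at Pt:34018-34440 (plus) at DT4 alone at 82.5 and 39.8, and one at Pt:34429-34719 (minus) at DT5 alone at 32.7 and 95.8. The fourth, at Pt:34720-35137 on the minus strand, was listed at 27.0 and 59.7 at DT3, against 71.4 and 92.1 in WW. It was the only one of the 8 listed in 2 groups and so the only one that could be tested: its log2 change at DT3 was -1.01 (SE 0.68), with an unadjusted p of 0.136 and a limma adjusted p of 0.862 over 235 circRNAs, of which 0% were called higher and 0% lower. Listing in a single group was common, at 52.9% of all 1354 circRNAs, against 7 of these 8. Of the 8, 5 are on the plus strand and 3 on the minus strand, and their lengths ran from 170 to 422 bp with a median of 237 bp. Those of psbC lay on both strands, so they cannot all run in the sense of the gene. The strand of a circRNA was not compared with that of its host, and hosts are given as deposited.

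**Figure D5:**
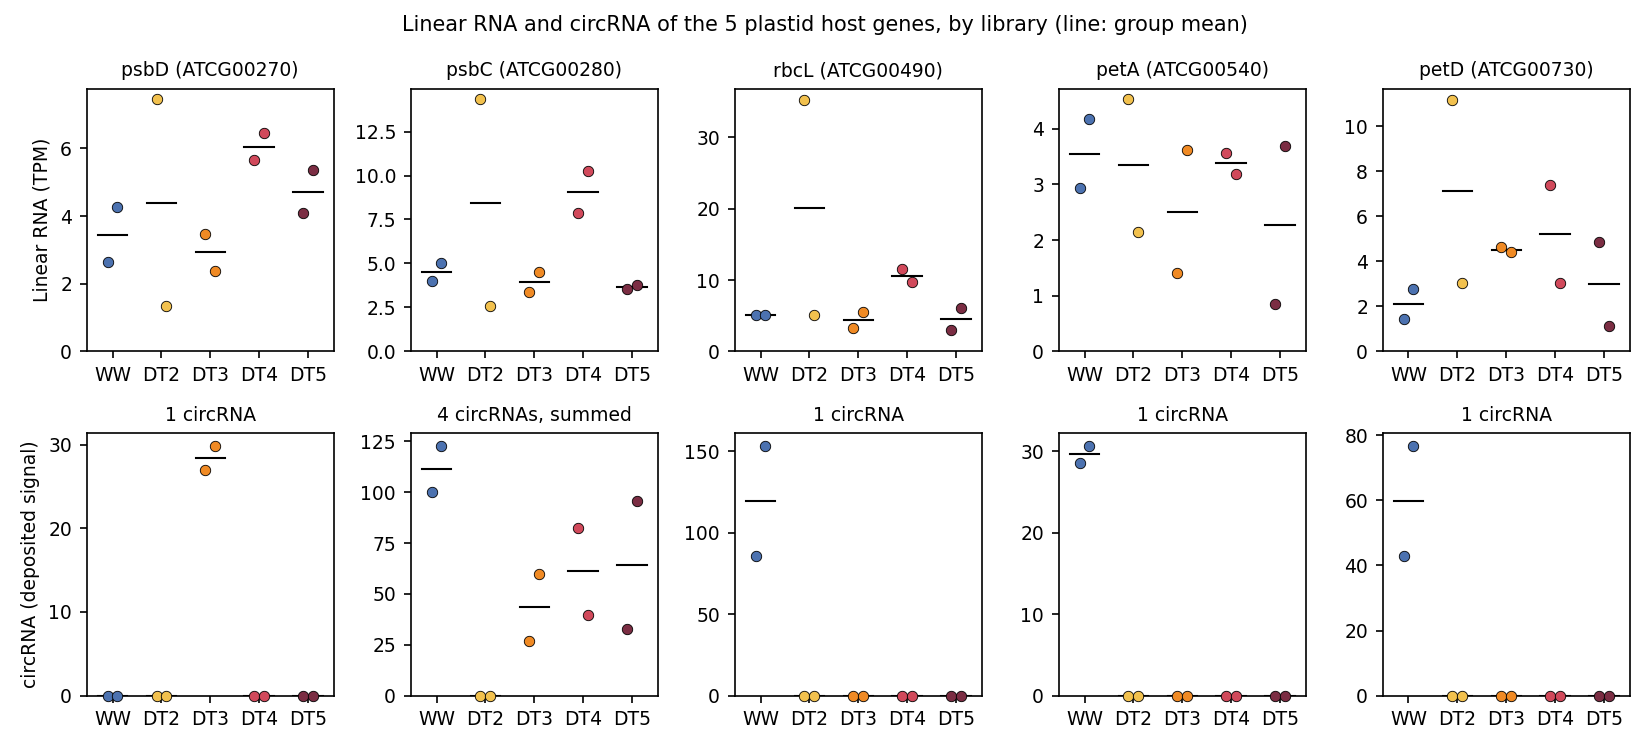
Linear RNA (TPM, upper row) and circRNA (deposited signal, lower row) of psbD, psbC, rbcL, petA and petD in each library, by water supply group (x axis). The circRNA signal is summed over the circRNAs of a gene on either strand. Points are libraries and lines are group means. The circRNAs of rbcL, petA and petD appear in WW only, while the linear RNA of all 5 genes was above 0 in every library.

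At DT2, where library 1 held the highest linear RNA of all 5 genes, none of the 8 circRNAs was listed. The linear and circRNA libraries of a group could not be paired by number, and the ratio of circRNA to linear RNA was not tested.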

How the data were processed

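The authors' linear RNA values are TPM for each transcript, as the file headers state and as deposited, and were summed here to genes. The circRNA values are a signal deposited by the authors whose scale the sources used here do not give. The submitters' processing notes name BWA, RSEM, edgeR and TAIR10, with no role. The header of the linear data has 13 cells and the rows have 12 fields; the cell naming the unit was read as a caption, since correlations within groups were then at least 0.977, against at least 0.863 otherwise. All columns of per-sample values were used. Libraries were assigned to groups by name, and their numbers were not matched to samples.

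Genes with at least 1 TPM in 2 libraries entered limma 3.58.1 (R 4.3.3, mean-variance trend, all 10 libraries in the fit, two-sided) as log2(TPM + 1). circRNAs listed in both groups compared were tested on log2 values. Both fits were tested on simulated data. Sums were compared by exact permutation. Values were read with pandas 2.3.3 and data.table (1.17.8).

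The rule named every plastid gene called against WW or between DT5 and DT2, each of the 8 circRNAs, and genes by complex; the last could not be applied, because identifiers could not be matched to names. ATCG00780 and the values of the 5 named hosts were added after values were seen. The gene choice and the nuclear lists were made with earlier results of these data known. The samples are biological replicates per the labels, each a pool of plants.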

Additional observations from a re-analysis of the deposited data

Results flagged for a closer look

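Outside the circRNAs with a host gene, 66 of the 192 plastid circRNAs were deposited without one. Of these, 11 lay away from psbA (3) or ran from psbA to a distant position (8). The rest overlapped psbA, some of them ending just outside it. Of the 11, 5 were listed in both libraries of a drought level and in neither WW library. Listing in a single group was common, at 52.9% of all 1354 circRNAs. AtciR51, from Pt:403 in psbA to Pt:37035 in rps14, averaged 16791 at DT2 (22112 and 11470) and was listed in no other group; it made up 18.9% and 10.7% of all circRNA signal in those libraries. AtciR109, from Pt:415 in psbA to Pt:9410, averaged 2069.6 at DT4 alone (1791 and 2348). AtciR38, from Pt:427 in psbA to Pt:77706, averaged 152 at DT5 alone (98.0 and 205). AtciR114, at Pt:34856-35162 over psbC, averaged 35.4 at DT2 alone (41.3 and 29.6). AtciR34, from Pt:425 in psbA to Pt:9327, averaged 28.5 at DT2 alone (27.5 and 29.6). No difference was tested for these circRNAs.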

How the results depend on the processing

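Each called plastid gene kept its direction under every alternative that tested it. Of 41 calls, 27, from 12 of 19 plastid genes, kept an adjusted p under 0.05 in all alternatives that tested the gene. Some called genes were absent from an alternative, such as the minimum of 5 TPM or the sum of pairs with the same values. ATCG00830 and ATCG01310, which have the same values, are both counted here. The count of plastid genes higher at DT4 was 5, and became 3 with a pseudocount of 0.1, 3 with a minimum of 5 TPM, 3 relative to the plastid sum, 1 after trimmed-mean rescaling and 10 in a fit of the compared libraries alone. The minimum of 5 TPM tested fewer plastid genes (34) and left 0 higher at DT2, 3 higher at DT5 and 11 in the F test. In a fit of the compared libraries alone, 2 were higher and 1 lower at DT2 and 4 were higher at DT3. Relative to the plastid sum, 6 were higher at DT5 than at DT2. Leaving out 1 library at a time gave 0 to 2 higher at DT2, 0 to 1 higher and 1 to 2 lower at DT3, 3 to 6 higher at DT4, and 3 to 7 higher and 8 to 21 lower at DT5 against DT2. The causes were not tested.

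The library numbers did not pair the samples: deviations of equal-numbered libraries correlated between -0.16 and 0.07 over 10 pairs of groups, none above 0.1. With a replicate block, 2 plastid genes were higher at DT3, and the other counts stayed within 1.5 times. After trimmed-mean rescaling, an alternative chosen after seeing the data, the summed TPM differed from WW by -67.5 at DT4 and -111 at DT5, against 34.5 and -46.6 as deposited; leaving out 1 library gave -20.9 to 94.4 at DT2, -46.0 to 60.5 at DT3, -1.84 to 70.9 at DT4 and -78.0 to -15.1 at DT5.

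The percent of circRNA signal from plastid hosts differed from WW by -0.304 at DT2, -0.255 at DT4 and -0.252 at DT5; with only values at least 3 times the smallest, by -0.186 at DT2, -0.150 at DT4 and -0.139 at DT5, and with 1 library left out by -0.382 to -0.227 at DT2. With all circRNAs tested on log2(value + smallest value), 0 of the 8 were higher and 5 lower at DT2, 1 higher and 5 lower at DT3, 1 higher and 5 lower at DT4, and 1 higher and 5 lower at DT5, where the same setting called from 40.8% (DT2) to 51.4% (DT5) of all circRNAs; there a group listed at 0 has no spread. A count test of circRNAs, recovered reads and a sum over protein-coding genes alone were not run, since whole reads and gene types could not be established. TPM keeps no depth, and circRNA values near 2 steps cannot show differences.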

Other observations

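The other 6 plastid circRNAs without a host that lay away from psbA or ran to a distant position were listed in WW alone. Of all circRNAs, 52.9% were listed in a single group. AtciR108, from Pt:403 in psbA to Pt:77454 in petD, had values of 5415 and 7829, or 4.78% and 7.79% of all circRNA signal in those libraries. AtciR113, at Pt:73716-73948 over psbB, the CP47 antenna protein gene of photosystem II, had 129 and 46.1. AtciR21, at Pt:28218-28398, overlapped no protein-coding gene of the reference table and had 71.4 and 30.7. AtciR130 had 343 and 353, AtciR86 had 129 and 200, and AtciR63 had 129 and 76.8, each running from psbA to a distant plastid position.

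A pair of plastid genes, chosen after their values were seen, had high values in single libraries. ATCG01060 had 31.6 TPM in DT4 library 2 and 27.1 TPM in DT5 library 2, and ATCG00580 had 27.4 TPM in DT3 library 2 and 7.71 TPM in DT5 library 2, each with 0 in the other 8 libraries.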
